A study of Bos taurus with 15 samples.

Results

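The genes described here are 10 contractile and calcium-handling genes that mark fast-twitch muscle fibres: MYH1, MYH2, TNNT3, TNNI2, TNNC2, MYLPF, MYL1, ATP2A1, ACTN3 and PVALB. They were looked up among the 21475 array probes by gene name, gene identifier or the human symbol in the probe description. For 8 of the 10 genes this found 9 probes with 18 spots, against 15138 named genes tested in all, and MYH2 and TNNI2 are not analysed here. MYH1 has 2 probes, both annotated to the same transcript record, and the brighter one represents the gene. The array names TNNC2 as LOC615428, ATP2A1 as LOC518117, ACTN3 as LOC539375 and PVALB as LOC538603. The names of MYL1 (LOC504392 on the array) and MYLPF (now called MYL11) rest on the similarity to a human gene that the array's description states. In the RefSeq gene table MYL1 has a different identifier, 317657, and whether both identifiers mean the same gene was not tested.

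RNA of biceps brachii, a limb muscle, was measured in 15 cattle (Bos taurus) on 1-colour oligonucleotide arrays, with 1 array per animal. The 8 prednisolone animals (P25 to P32) received 30 mg of this synthetic glucocorticoid per head and day by mouth for 35 days, and the 7 control animals are C17, C18 and C20 to C24. Tissue was collected at slaughter; the design text speaks of cows, and age is not given. Prednisolone RNA was extracted with TRIzol and cleaned with RNeasy MinElute columns, and control RNA with the RNeasy Mini kit, so that treatment and extraction cannot be told apart. The protocol text of the control samples names Finaplix, Revalor and Revalor with dexamethasone, although each of these samples is labelled CONTROL, so a difference in trial cannot be told apart either.

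Fast fibres contract quickly because their myosin splits ATP fast and their sarcoplasmic reticulum releases and takes up calcium fast. Each step of contraction has fast isoforms of its own: a heavy chain and light chains of the myosin motor, a troponin complex on the thin filament that senses calcium, an actinin in the Z-disc, and a calcium pump. In rodents and humans, glucocorticoid excess is known to reduce muscle mass, with fast fibres affected more than slow ones.

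Values are log2 intensities after each array was shifted to a common 75th percentile, and differences are prednisolone minus control on the log2 scale. Levels of different probes are not comparable with each other, because each probe has its own brightness. All 9 probes gave a value on all 15 arrays, lay well above background on the 8 prednisolone arrays and were saturated on 0 of them; the same flags of the control arrays were not used here. On the prednisolone arrays the brightest single spots, those of TNNC2 and MYH1, reached 64.1% and 63.5% of the scanner's saturation value. The share of spots with a value was 72.1% to 87.4% per array. The 6 muscle fibre markers ACTA1, CKM, DES, TTN, NEB and MB were all well above background on the 8 prednisolone arrays. Their intensities summed to a log2 level of 19.48 to 19.86 in prednisolone animals and 19.60 to 19.83 in controls. The brightest probes weigh most in such a sum. TTN alone spanned 9.09 to 10.96 in prednisolone animals and 8.31 to 11.57 in controls. NEB spanned 10.60 to 11.59 and 10.46 to 11.50. Among controls both were lowest on C17 and highest on C18, while ACTA1, CKM, DES and MB were not lowest on C17.

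On some arrays, marker genes of other cell types also gave a high signal. The summed level of 3 of 5 thymocyte markers was 5.68 to 12.38 in prednisolone animals and 6.19 to 13.98 in controls, with the highest value on C17, and that of 4 of 5 leukocyte markers was 8.41 to 10.71 in prednisolone animals and 8.64 to 11.91 in controls, again highest on C17. The 5 testis germ cell markers summed to 8.73 to 17.66 in prednisolone animals and 11.31 to 18.10 in controls, highest on P31 and C20 within their groups. The design text speaks of cows, and the source of this testis germ cell signal was not tested. All 5 fibroblast markers had a lower mean in prednisolone animals (median difference -0.44) and all 5 adipocyte markers a higher one (0.34). The testis germ cell markers were lower in prednisolone animals for 4 of 5 (median difference -3.44, 3 past an unadjusted p of 0.05 by limma), smooth muscle markers higher for 4 of 5 (0.36) and nerve markers for 4 of 4 (0.30). Of all genes tested, 47.9% had a lower mean in prednisolone animals. None of these marker lists had a gene past the adjusted threshold, and their part in the results below was not tested. The effect of leaving out C17, C20 and P31 is given for some of the results below.

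No fast-fibre gene passed the test of a difference between prednisolone and control muscle. With limma and Benjamini-Hochberg adjustment, 0 of 8 genes passed an adjusted p of 0.05, where 0% of the 15138 genes tested did, and the members' adjusted p lay between 0.997 and 0.999. None passed an unadjusted p of 0.05 either, which 3.28% of all genes (496) did. The mean was lower in prednisolone animals for 7 of the 8 genes, against 47.9% of all genes, and the median difference was -0.10 over the members and 0.01 over all genes. This lean depended on the scaling: after quantile normalization 4 of the 8 were lower and 4 higher, with a median of 0.0043. Leaving out 1 animal gave 5 to 7 lower genes and a median between -0.18 (without C17) and -0.06 (without C18). Without C17, C20 and P31 the median was -0.22, with 7 of the 8 lower. Prednisolone and control animals overlapped for every one of the 8 genes. The 95% interval lay within 2-fold in both directions for 6 of the 8, all but TNNT3 and PVALB. The shares of all genes with such overlap or such an interval were not counted, so neither count sets these genes apart. Over all genes the 95% interval reached a median of 0.45 to either side of the log2 difference. In bulk muscle, fewer fast fibres and less RNA of these genes per fibre cannot be told apart.

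**Figure D1:**
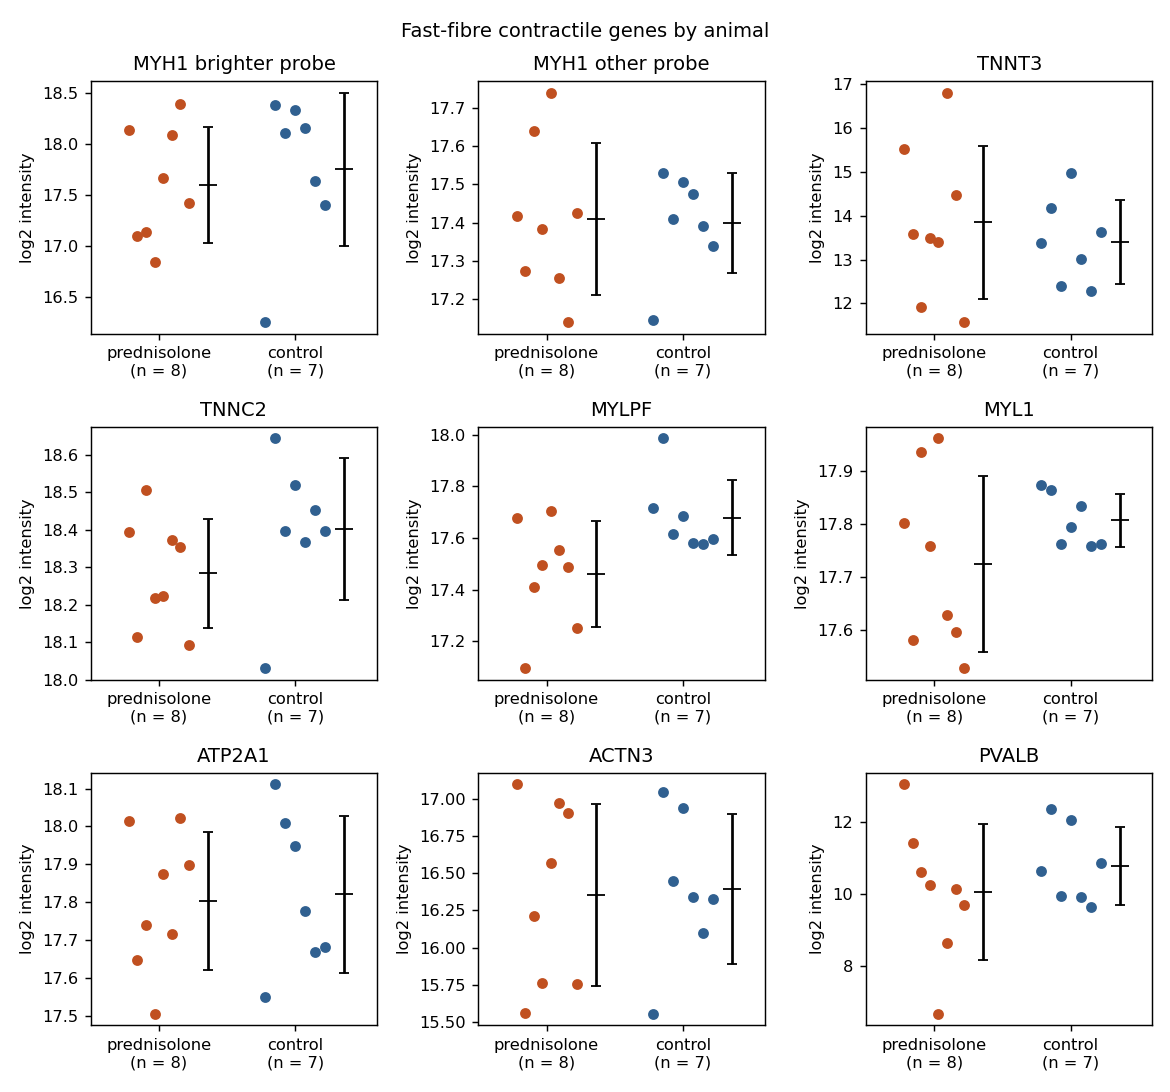
Log2 intensity of the 9 probes of 8 fast-fibre genes in each animal (points), with the mean and SD of each group (black), for 8 prednisolone and 7 control animals; each panel has its own scale, which does not start at 0. The groups overlap in every panel, and TNNT3 and PVALB spread over a much wider range than the other genes.

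MYH1 encodes the heavy chain of type IIx myosin, the motor of a fast fibre type. In the RefSeq gene table (assembly ARS-UCD2.0) it lies beside MYH2, the heavy chain gene of type IIa fibres, in a row of related heavy chain genes. Its brighter probe had a lowest, median and highest value of 16.84, 17.54 and 18.39 in prednisolone animals and 16.25, 18.10 and 18.38 in controls. The lowest animal of all was the control C17 and the highest was P31. The means were 17.60 ± 0.56 (SD, n = 8) in prednisolone animals and 17.75 ± 0.75 (SD, n = 7) in controls, a difference of -0.15 (95% interval -0.84 to 0.54, adjusted p = 0.997), or 0.899-fold. The difference was -0.40 without C17 and -0.50 without C17, C20 and P31, and -0.05 without P28 or C18 and -0.06 without C21, with adjusted p of at least 0.816 by limma in all alternatives.

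The other MYH1 probe varied much less, over a 1.52-fold range across all animals against 4.39-fold for the brighter one. Its values were 17.14, 17.40 and 17.74 in prednisolone animals and 17.14, 17.41 and 17.53 in controls. The difference was 0.01 (95% interval -0.22 to 0.24). Across the 7 controls both probes ranked the animals identically, with a Pearson r of 0.98 and a Spearman rho of 1. Across the 8 prednisolone animals r was -0.36 and rho was -0.29. Over all 15 animals, with group means removed, r was 0.20 (permutation p = 0.452) and rho 0.18 (permutation p = 0.546), and r without C17 and P28, the animals farthest from the median, was -0.18. The difference between the groups in this correlation was not tested. Myosin heavy chain genes have closely related sequences, and whether either probe also binds a neighbour's transcript was not tested, since the probe sequences were not used here.

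**Figure D2:**
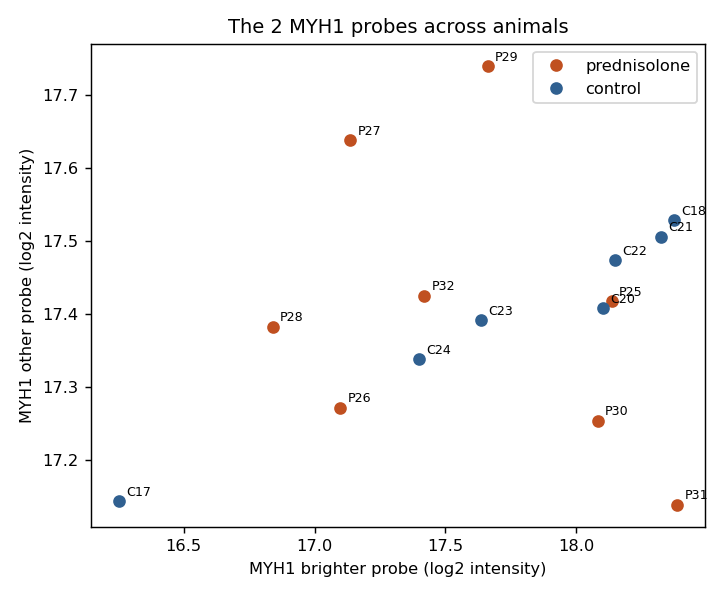
The 2 MYH1 probes plotted against each other, in log2 intensity, for 8 prednisolone (orange) and 7 control (blue) animals. The controls lie along a rising line from C17 to C18, while the prednisolone animals do not, with P31 highest on one probe and lowest on the other.

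The fast light chains bind to the neck of the myosin heavy chain: MYL1 encodes an essential and MYLPF the regulatory one. MYLPF had values of 17.10, 17.49 and 17.71 in prednisolone animals and 17.57, 17.61 and 17.99 in controls. In 6 of the 8 prednisolone animals it lay below the control median, and the groups still overlapped. The difference was -0.22 (95% interval -0.45 to 0.01), with means of 17.46 ± 0.21 (SD, n = 8) in prednisolone animals and 17.68 ± 0.15 (SD, n = 7) in controls, and limma gave an unadjusted p of 0.0626 and an adjusted p of 0.997. This was the smallest p among the 8 genes. An exact two-sided permutation test of the same difference gave an unadjusted p of 0.0267, so whether it passes 0.05 before adjustment depends on the test.

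MYL1 had the smallest range of the members, 1.35-fold over all animals. Its values were 17.53, 17.69 and 17.96 in prednisolone animals and 17.76, 17.79 and 17.87 in controls. The control animals thus lay inside the range of the prednisolone animals, and the SD was 0.17 in prednisolone animals against 0.05 in controls. The difference was -0.08 (95% interval -0.27 to 0.11, adjusted p = 0.997). It was 0.03 after quantile normalization and between -0.12 (without P29) and -0.05 (without P32) with 1 animal left out.

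The troponin complex switches the thin filament on when calcium binds. TNNC2, the fast subunit that binds the calcium, had values of 18.09, 18.29 and 18.51 in prednisolone animals and 18.03, 18.40 and 18.64 in controls. It lay below the control median in 7 of 8 prednisolone animals, but the lowest value of all was that of C17. The difference was -0.12 (95% interval -0.34 to 0.10, adjusted p = 0.997). It was 0.01 after quantile normalization and between -0.18 (without C17) and -0.08 (without C18) with 1 animal left out. Without C17, C20 and P31 it was -0.20.

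TNNT3, the fast subunit that ties the complex to tropomyosin, was one of the 2 genes that varied most between animals. Its values were 11.57, 13.55 and 16.81 in prednisolone animals and 12.28, 13.37 and 14.99 in controls, a 38.0-fold range over all 15. P30 and P25 were above every control and P32 and P27 below every one. The means were 13.85 ± 1.74 (SD, n = 8) in prednisolone animals and 13.41 ± 0.96 (SD, n = 7) in controls, and the difference of 0.44 (95% interval -1.04 to 1.92, adjusted p = 0.997) was 0.02 without P30, 0.77 without P32 and 0.18 without C20 and P31. P30, with the highest TNNT3 of all animals, and P32, with the lowest, had the highest sums of thymocyte markers among prednisolone animals, 12.38 and 11.68. C17, with the highest such sum of all animals (13.98), had a TNNT3 value of 13.37, the control median. The part of the thymocyte signal's source in the TNNT3 values was not tested.

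ACTN3, the actinin of fast-fibre Z-discs, had values of 15.56, 16.39 and 17.10 in prednisolone animals and 15.55, 16.34 and 17.05 in controls. The ranges of the groups nearly coincided, and they spanned 2.93-fold. The difference was -0.04 (95% interval -0.64 to 0.56, adjusted p = 0.999), and its sign turned when single animals were left out, between -0.18 without C17 and 0.08 without P26. Without C17, C20 and P31 the difference was -0.27.

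ATP2A1 encodes SERCA1, the pump that returns calcium to the sarcoplasmic reticulum of fast fibres. It had values of 17.51, 17.81 and 18.02 in prednisolone animals and 17.55, 17.78 and 18.11 in controls. The difference was -0.02 (95% interval -0.26 to 0.23, adjusted p = 0.999), and the sign turned under quantile normalization (0.06), with equal medians (0.0032) and without single animals (-0.06 to 0.03).

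PVALB encodes parvalbumin, a calcium buffer that is abundant in fast fibres of rodents. It had the widest range of the members, 84.2-fold, and its brightest spot reached 1.45% of the saturation value. The values were 6.65, 10.19 and 13.05 in prednisolone animals and 9.63, 10.64 and 12.36 in controls. P25 lay above every control, and P29 and P30 lay below every control. The means were 10.05 ± 1.89 (SD, n = 8) in prednisolone animals and 10.76 ± 1.08 (SD, n = 7) in controls, with a difference of -0.71 (95% interval -2.33 to 0.90, adjusted p = 0.997). The difference was -0.23 without P29, -1.14 without P25 and -0.92 without C17, C20 and P31.

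**Figure D3:**
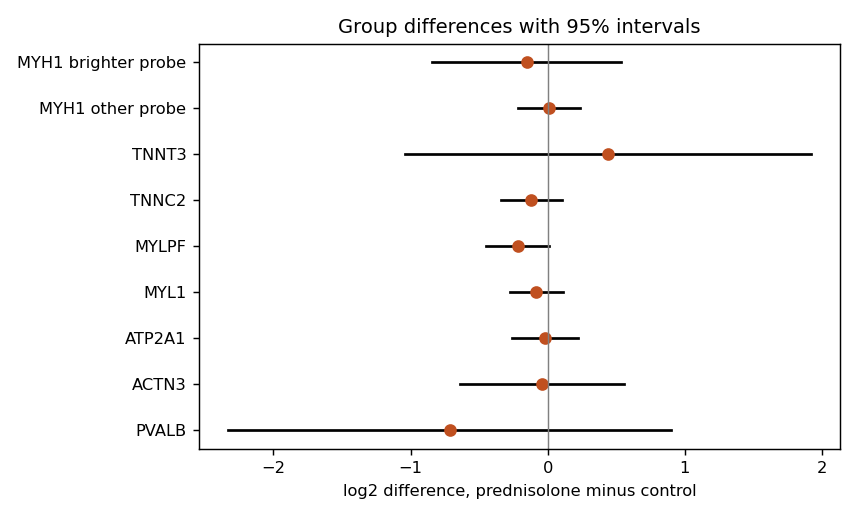
Difference of each probe between prednisolone and control animals (points, log2) with its 95% interval from limma (lines). Every interval includes 0; that of TNNT3 reaches past -1 and 1, that of PVALB reaches past -2, and that of MYLPF ends just above 0.

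The 2 spots of a probe gave a technical SD of the mean between 0.03 and 0.07 over the probes. The SD between animals was 0.13 to 1.89 and larger than its probe's technical SD in each group, except for MYL1 in controls, where both were 0.05. For 5 of the 8 genes the SD was larger in prednisolone animals, where 44.3% of all genes had a larger SD in that group, and this was not tested. Animals on the same slide differed too: on the prednisolone arrays, TNNT3 in P25 minus its slide neighbour P26 was 1.93, P27 minus P28 was -1.59 and P29 minus P30 was -3.41. PVALB gave 1.64, 0.36 and -1.96 for the same pairs. The slides and scan days of the control arrays were not used here.

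Some of the genes varied together from animal to animal. How often pairs of other genes do so on these arrays was not counted. On values with the group mean removed, 4 of the 28 pairs of members were correlated past an adjusted permutation p of 0.05, by Pearson r and by Spearman rho alike. The strongest was MYH1 with ACTN3, at r = 0.87 (permutation p adjusted over 28 pairs = 0.0011) and rho = 0.89 (adjusted permutation p = 0.0022). It was 0.89 within prednisolone animals and 0.89 within controls, and 0.84 without C17 and P28. The animals with the most MYH1 signal, P31, C18 and C21, were thus among those with the most ACTN3, and C17 was lowest in both.

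MYH1 and ATP2A1 followed with r = 0.81 (adjusted permutation p = 0.0059) and rho = 0.85 (adjusted permutation p = 0.0034). Within prednisolone animals r was 0.79 and within controls 0.84, and without C17 and P28 it was 0.72. TNNC2 with ACTN3 had r = 0.76 (adjusted permutation p = 0.0156; rho = 0.75, adjusted permutation p = 0.0225), with 0.67 in prednisolone animals and 0.91 in controls, and 0.66 without C17 and C18. ATP2A1 with ACTN3 had r = 0.73 (adjusted permutation p = 0.0220; rho = 0.76, adjusted permutation p = 0.0177), with 0.63 in prednisolone animals and 0.89 in controls, and 0.65 without C18 and P31.

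MYH1, ACTN3 and ATP2A1 thus form a trio in which each pair was correlated, and TNNC2 joined it through ACTN3. The calls of the trio depended on the probe: with the other MYH1 probe, r was 0.22 with ACTN3 and 0.29 with ATP2A1, and neither passed (adjusted permutation p = 0.658 and 0.584). MYH1 with ACTN3 passed in 20 of 21 alternatives and failed only with that probe. Leaving out C17 alone took the calls from TNNC2 with ACTN3 (r = 0.70) and from ATP2A1 with ACTN3 (r = 0.67), both at an adjusted permutation p of 0.0671. Leaving out C18 took both calls too (adjusted permutation p = 0.0609 and 0.0771), and leaving out P25 that of ATP2A1 with ACTN3 (0.0583). After quantile normalization r was 0.42 for TNNC2 with ACTN3 (adjusted permutation p = 0.228) and 0.63 for ATP2A1 with ACTN3 (adjusted permutation p = 0.0803). Without C17, C20 and P31 only MYH1 with ACTN3 of the 4 passed (r = 0.86, adjusted permutation p = 0.0323). The count of 4 pairs also moved with the scaling between arrays, to 8 on the values as deposited and to 2 after quantile normalization.

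Of the 28 pairs, 23 had a positive and 5 a negative r, 19 were positive in both groups, and the median r was 0.32. ACTN3 followed the mean of the other members most closely (r = 0.93 over 15 arrays), then TNNC2 (0.71), MYH1 (0.68), MYLPF (0.64) and ATP2A1 (0.63). TNNT3 (0.48), PVALB (0.17) and MYL1 (0.13) followed it least; these are descriptions with no test. MYLPF and ACTN3 (r = 0.68, adjusted permutation p = 0.0534) and TNNT3 and ACTN3 (r = 0.67, adjusted permutation p = 0.0568) fell just short of the threshold.

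PVALB had unlike correlations in the groups. Its r with TNNT3 was 0.07 in prednisolone animals and 0.92 in controls, and its r with MYLPF was -0.28 in prednisolone animals and 0.79 in controls. Over all animals r was 0.25 for PVALB with TNNT3 (adjusted permutation p = 0.669), and the difference between the groups was not tested.

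**Figure D4:**
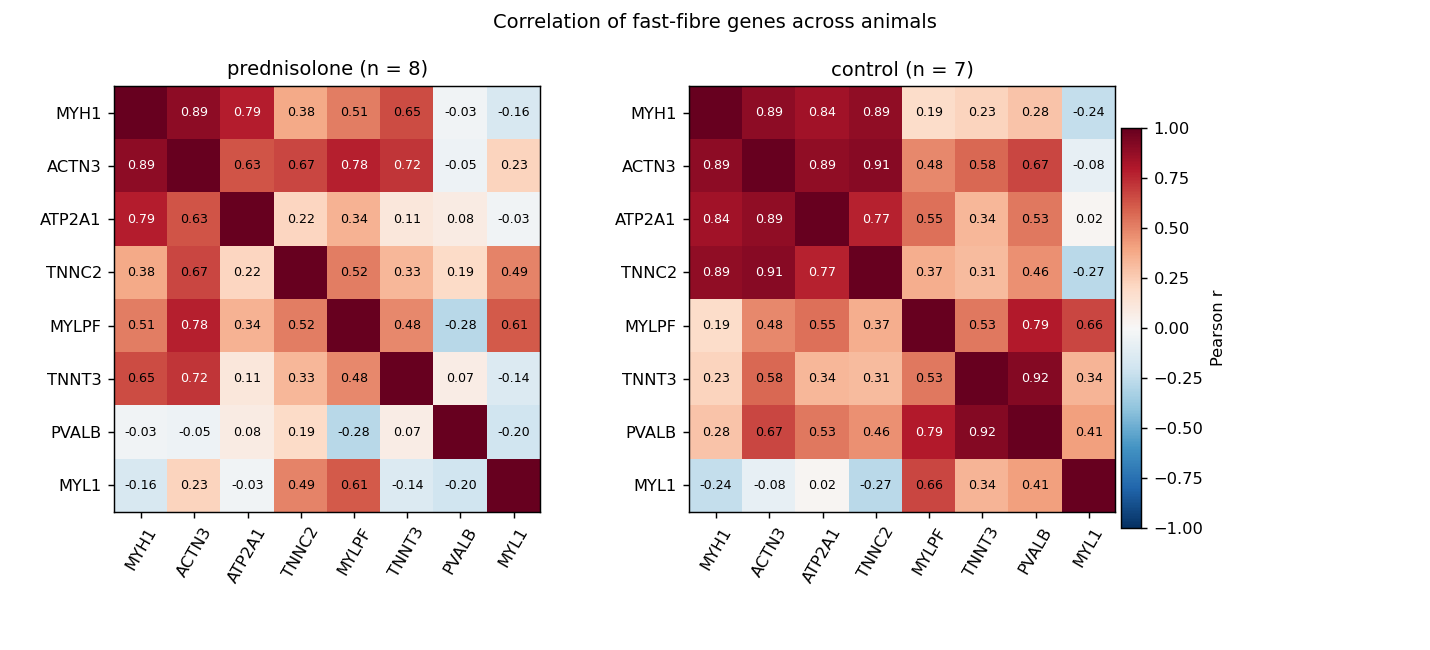
Pearson r of each pair of the 8 fast-fibre genes across animals, within 8 prednisolone animals (left) and 7 controls (right), coloured between -1 and 1. MYH1, ACTN3 and ATP2A1 are positively correlated with each other in both panels, while the PVALB row is pale among prednisolone animals and darker among controls.

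Slow fibres express their own isoforms of the same parts, and 14 of 15 listed slow-fibre genes were measured. None of the 14 passed an adjusted p of 0.05 by limma. In prednisolone animals 3 had a higher and 11 a lower mean, against 47.9% of all genes lower. The median difference of the 14 was -0.10. Each fast-fibre gene was set against each of these, which gave 112 pairs, a comparison chosen after seeing the data. Past an adjusted permutation p of 0.05 by Pearson r were 13 pairs, 10 negative and 3 positive. How many pairs of other genes reach such correlations was not counted. Of the 10 negative pairs, 8 joined MYH1, ACTN3 or ATP2A1 to PLN, MYOZ2 or MYL6B.

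PLN encodes phospholamban, which restrains the slow and cardiac calcium pump. It lay between 11.36 and 13.08 in prednisolone animals and between 10.98 and 12.85 in controls. Its r was -0.82 with ACTN3 (adjusted permutation p = 0.0205, rho = -0.80), -0.82 with MYH1 (adjusted permutation p = 0.0234, rho = -0.89) and -0.77 with ATP2A1 (adjusted permutation p = 0.0234, rho = -0.81). C18, with the highest ATP2A1 and the second highest MYH1 and ACTN3 of all animals, had the lowest PLN.

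MYOZ2 encodes calsarcin-1, a Z-disc protein of slow and cardiac muscle. Its values were 14.42 to 15.81 in prednisolone animals and 13.65 to 15.85 in controls, lowest on C18 and highest on C17. It had r = -0.86 with ATP2A1 (adjusted permutation p = 0.0062, rho = -0.90), -0.77 with ACTN3 (adjusted permutation p = 0.0234) and -0.77 with MYH1 (adjusted permutation p = 0.0344). Within each group these were also negative, at -0.78, -0.83 and -0.96 in prednisolone animals and -0.93, -0.77 and -0.66 in controls.

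MYL6B, a light chain of slow muscle, ranged over 16.71 to 18.09 in prednisolone animals and 16.97 to 17.98 in controls. Its r was -0.78 with ACTN3 (adjusted permutation p = 0.0344) and -0.69 with MYH1 (adjusted permutation p = 0.0375). By rho the pair with ACTN3 did not pass (-0.70, adjusted permutation p = 0.0521). The pair with MYH1 did (-0.73, adjusted permutation p = 0.0273). Of the 7 animals above their group mean in both MYH1 and ACTN3, 6 (P25, P30, P31, C18, C20 and C21) were below it in PLN, MYOZ2 and MYL6B, and P29 was above it in all 3. P26, P27, P28, C17, C23 and C24 were below their group mean in MYH1 and ACTN3 and above it in the 3 slow-fibre genes. These 3 were picked from the 14 by their correlations on the same arrays. The counts of animals follow from that choice and are no separate evidence.

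**Figure D5:**
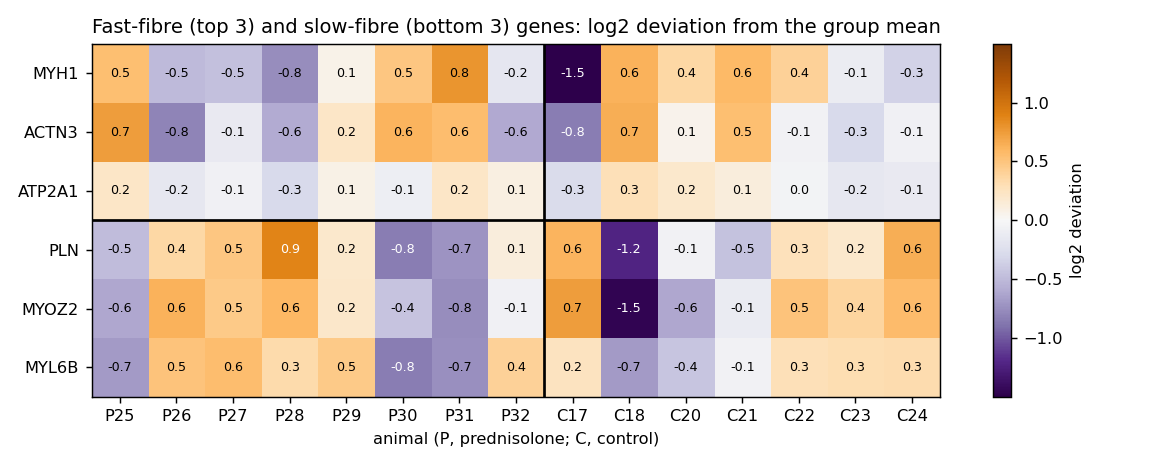
Deviation of each animal from its group mean (log2; orange above, purple below) for the fast-fibre genes MYH1, ACTN3 and ATP2A1 (top 3 rows) and the slow-fibre genes PLN, MYOZ2 and MYL6B (bottom 3 rows), in 8 prednisolone (P) and 7 control (C) animals. P25, P30, P31, C18, C20 and C21 are above the mean in MYH1 and ACTN3 and below it in the slow-fibre genes, and P29 is above it in all of these. The slow-fibre genes shown were picked by their correlations with the fast-fibre genes on the same arrays.

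ATP2A1 with MYOZ2 and ACTN3 with PLN passed in 19 of 19 alternatives. Among the 19 is the other MYH1 probe, which leaves r of pairs without MYH1 unchanged and can move only their adjusted p. Of the other pairs of the trio with these slow-fibre genes, ACTN3 with MYOZ2 passed in 17, MYH1 with PLN in 16, ACTN3 with MYL6B and ATP2A1 with PLN in 13 each, MYH1 with MYOZ2 in 10 and MYH1 with MYL6B in 8. The number of pairs past the threshold was 13 over all animals and depended on single animals: it was 4 without P26, 6 without each of C18, P28, P31 and P32, 8 without each of P25 and P27, and 9 without C17, C20 and P31. With the other MYH1 probe the correlations of MYH1 with MYOZ2, PLN and MYL6B were -0.04, 0.03 and 0.31.

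The other fast-fibre genes had other partners. TNNT3 was negatively correlated with MYL3, the slow essential light chain (r = -0.77, adjusted permutation p = 0.0344), and with TPM3, the slow tropomyosin (r = -0.71, adjusted permutation p = 0.0344), and each lost its call in 10 of 19 alternatives, among them without P30. MYLPF (r = 0.79, adjusted permutation p = 0.0234) and ACTN3 (r = 0.69, adjusted permutation p = 0.0400) were positively correlated with SLN, sarcolipin, a small regulator of the calcium pump. By rho those 2 pairs did not pass (0.63 and 0.71, adjusted permutation p = 0.0990 and 0.0521), and MYLPF with SLN had r = 0.96 in prednisolone animals and 0.22 in controls. MYH7, the slow heavy chain, passed with no member, with r between -0.40 (TNNT3) and 0.53 (TNNC2).

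MYL1 had r of -0.15 with MYH1 (brighter probe), 0.16 with ACTN3 and -0.02 with ATP2A1, and 0.66 with the other MYH1 probe (adjusted permutation p = 0.119), the highest r of that probe with any member. MYL1 was correlated with MB, the oxygen store myoglobin, at r = 0.88 (adjusted permutation p = 0.0011, rho = 0.88), with 0.93 in prednisolone animals and 0.90 in controls and 0.76 without P27 and P29. After quantile normalization the same pair had r = -0.36 (adjusted permutation p = 0.411), so its direction depended on the scaling between arrays. The 3 of 9966 genes most like MYL1 over the 15 arrays were ACTA1 (r = 0.94), the skeletal actin, PHOX2A (0.90) and GSTM1 (0.90), the last with 0.93 in prednisolone animals and 0.30 in controls.

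Among the same 9966 genes, those most like the mean of the members were PC (r = 0.94), pyruvate carboxylase, AHDC1 (0.93), PPFIBP1 (0.92), KIAA1856 (0.89) and GPI (0.89), a glycolytic enzyme. The most opposed were CTH (r = -0.92), an enzyme of cysteine synthesis, MRPL43 (-0.89) and MRPS18A (-0.88), both of the mitochondrial ribosome, WDR12 (-0.89) and GPR27 (-0.88). All 10 had the same sign within each group. These are the extremes of a ranking over 15 arrays that share their scaling, given with no test.

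Related genes were looked at by list. Of 10 other fast-fibre genes 9 were measured, 4 higher and 5 lower in prednisolone animals with a median difference of -0.03, and 0 passed the adjusted threshold. TPM1, a fast tropomyosin, had the smallest p of them (unadjusted p = 0.0372 by limma). It had 17.48 to 17.89 in prednisolone animals and 17.79 to 18.26 in controls, a difference of -0.22 (95% interval -0.42 to -0.01, adjusted p = 0.997). TPM1 is named for that smallest p, so its interval follows from that choice and is no separate evidence. MYOZ1, the fast-fibre calsarcin, differed by -0.12. All 13 glycolytic enzymes listed had a lower mean in prednisolone animals, against 47.9% of all genes, with a median difference of -0.11. None of the 13 passed the adjusted threshold, and how this count moves with the scaling between arrays is not given here. ALDOA, the muscle aldolase, differed by -0.17 (95% interval -0.37 to 0.03) and GAPDH by -0.16.

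Of 20 genes of sarcomeres of all fibre types 18 were measured, 12 higher and 6 lower, with a median of 0.10 and 0 past the threshold; SMYD1, a muscle-specific methyltransferase, differed by 0.38, MYOM2, of the M-band, by 0.34, and LDB3, of the Z-disc, by 0.09. Among slow-fibre genes MB differed by -0.13, MYL3 by -0.28 and TNNC1, the slow troponin C, by -0.12. TNNC1 (up to 19.16, on C22) and MB (up to 18.92, on C18) reached a brighter signal than any fast-fibre member. How near their spots came to the scanner's saturation value is not given here. Of 7 developmental and cardiac genes 6 were measured, 2 higher and 4 lower, with 0 past the threshold: MYH3, the embryonic heavy chain, differed by -0.42 and ACTC1, the cardiac actin, by -0.14, and MYH8 was well above background on 1 prednisolone array.

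Of 20 regulators of fibre type 18 were measured, 12 higher and 6 lower, with a median of 0.09, and 0 passed the adjusted threshold. VGLL2 and PRDM1 are named because they had the smallest p of this list. Their intervals and counts of animals follow from that choice and are no separate evidence. VGLL2, a cofactor of muscle transcription factors, had 8.54 to 9.83 in prednisolone animals and 6.28 to 8.88 in controls, a difference of 0.85 (95% interval 0.15 to 1.55, adjusted p = 0.997 by limma). In 8 of 8 prednisolone animals it lay above the control median. PRDM1, known from zebrafish to promote the slow-fibre fate, had 4.34 to 5.26 in prednisolone animals and 4.67 to 5.85 in controls, a difference of -0.63 (95% interval -1.02 to -0.25, adjusted p = 0.997 by limma). In 8 of 8 prednisolone animals it lay below the control median. RCAN1, a target of calcineurin signalling, differed by 0.13. The groups overlapped for all 3.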

How the data were processed

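Total RNA was hybridised to Agilent-015354 arrays, 1 per animal. The deposited table holds 1 linear intensity per spot and array; per the file headers of the 8 prednisolone arrays, Agilent Feature Extraction 9.5.1.1 made background-subtracted processed intensities, and the submitters' processing notes name R 2.11.1. The method of scaling between arrays was not given in the sources used here. Across the spots of those arrays, log2 table values and log2 scanner signals had r of 0.9998 or more, and the table's empty cells were exactly the spots not found. The other deposited columns used are flags of 0 or 1 (detection, saturation).

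Here, log2 values were shifted to a common 75th percentile over the 14324 probes with values on all 15 arrays, spots of a probe were averaged, and probes with at least 3 values per group were tested (20894 probes, 15138 genes by the brightest probe) with limma 3.58.1 (lmFit, eBayes) in R 4.3.3 and Benjamini-Hochberg adjustment. Names came from the RefSeq gene table (assembly ARS-UCD2.0) or the array's descriptions; 4379 probes had none. Correlations used group-centred values and two-sided permutations of animals within groups (100000; NumPy 2.4.6), adjusted over the 28 or 112 pairs. The limma and correlation steps were tested on simulated data. The number of arrays limits the precision.

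The members and lists were chosen with earlier results of these data known. Genes were named by rule: all members; per list, the 2 with the smallest p and the brightest; the 5 most and 5 least like the members' mean, and the 3 most like MYL1. Slow-fibre genes beyond these were named from the added pairs, after their values were seen. Alternatives were 4 scalings, 2 filters, mean of probes, array weights, trended and robust eBayes, the exact permutation test, each animal left out, and C20 with P31 left out. Added after seeing the data were the other MYH1 probe, the slow-fibre pairs, and leaving out C17, C20 and P31.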

Additional observations from a re-analysis of the deposited data

Results flagged for a closer look

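MYLPF in C18, at 17.99, lay far above the other control animals, whose values were 17.57 to 17.71. The gap to the nearest control was large for the spread of that group; 18 groups of values were looked at, and chance alone would mark about 1 in 20. C18 also had the highest TNNC2 and ATP2A1 of all animals. Without C18 the MYLPF difference stayed negative.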

How the results depend on the processing

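Over 26 alternatives the adjusted p of every member stayed between 0.704 and 0.9999 and 0 members passed. Signs turned for TNNC2 (0.0132), MYL1 (0.0292) and ATP2A1 (0.0595) under quantile normalization and for ATP2A1 with equal medians (0.0032). Leaving out 1 animal gave ranges of -0.0638 to 0.0301 for ATP2A1, -0.178 to 0.0755 for ACTN3, -0.403 to -0.0455 for MYH1, 0.0176 to 0.767 for TNNT3, -1.14 to -0.230 for PVALB, -0.255 to -0.168 for MYLPF, -0.179 to -0.0772 for TNNC2, -0.117 to -0.0546 for MYL1 and -0.179 to -0.0610 for the members' median, which was 0.0043 under quantile normalization. Without C17, C20 and P31 the members' median was -0.216. The cause of the turns in sign was not tested. The number of genes past the adjusted threshold was 0 to 1 when 1 animal was left out (ZNF696 without C23, PZP without P31; named after their values were seen), and 1, PZP, without C20 and P31 and without C17, C20 and P31. PZP was well above background on 3 of 8 prednisolone arrays.

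The 4 correlated member pairs became 8 on the values as deposited, 2 under quantile normalization, 7 without group centring, 7 with the mean of all probes of a gene, 2 without C17, C20 and P31, 2 with the other MYH1 probe, and 2 (without C18) to 7 (without P27) when 1 animal was left out. The 13 pairs with slow-fibre genes became 17 on the values as deposited, 12 under quantile normalization, 9 with the other MYH1 probe, 9 without C17, C20 and P31, and 4 to 16 when 1 animal was left out. Under quantile normalization MYL1 with MB was -0.355; with the other MYH1 probe MYH1 with MYL6B was 0.307 and with PLN 0.0267. The slide could not be used as a block, since the control slides were not used here. No paired analysis was possible because the groups share no replicate numbers.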
